A study of Homo sapiens with 24 samples.

Results

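U251MG, an established human glioblastoma cell line, was compared between 3 CAGE-Seq libraries labelled “WWOX” and 3 labelled “Vec”. The comparison covered every autosomal gene with at least 5 CPM (the tags of a gene, scaled to the same total in every library) in at least 1 of the 6 libraries, which held for 10212 of the 43037 genes of the deposited table. Of these, 9534 were protein coding and 458 were long noncoding RNA genes, 9424 reached the minimum in both groups, 138 only in “Vec” libraries, and 650 only in “WWOX” libraries. At the minimum itself, ZFP14 was just inside with a highest value of 5.00 CPM, and FAM74A3 was just outside with 4.96 CPM. The “WWOX” cells were stably transduced with a lentiviral vector that drives WWOX from a CMV promoter and also carries GFP and puromycin resistance. The “Vec” cells received the blank puromycin lentivirus, so both groups went through transduction and puromycin selection, which the labels describe as selecting clones without saying how many clones make up a variant. The same design was applied to 3 more glioblastoma lines, DBTRG-05MG, T98G, and U87MG, with 24 libraries in 8 groups in all. The study describes the 3 libraries of each variant as biological replicates, and the labels do not say how the cultures were separated. The p-values measure a spread between libraries, which the main model shares over all 24 libraries of the 8 groups. They do not measure the spread of the U251MG libraries alone.

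WWOX encodes a WW domain-containing oxidoreductase whose gene spans a common fragile site and is often lost in tumors. Its WW domains bind proline-rich motifs of transcription factors and other partners, and the gene is studied as a tumor suppressor. CAGE reads the capped 5′ ends of transcripts, so each tag marks a start of transcription. Here the deposited values are tags per gene, RNA integrity numbers were over 8.0 per the labels, and random primers were used for reverse transcription per the methods of the study.

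The 6 U251MG libraries held between 12333788 and 14931546 tags on genes. The library labelled “WWOX” 1 stood apart in its composition, with 13.4% of tags on its 10 most abundant genes, against 8.15 to 10.1% in the other 5. It also had 3.0% of tags on long noncoding RNA genes (1.07 to 1.64% in the others) and 0.883% on histone genes (3.31 to 6.52% in the others). Libraries labelled “WWOX” 1 and 2 disagreed at many genes, as described below, and values are therefore given for each library by its label.

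The targeted gene did not separate the groups. WWOX (chr16, from 78099400 on the plus strand of hg38) measured 31.4, 36.8, and 32.1 CPM in “Vec”, and 56.7, 17.4, and 38.0 CPM in the libraries labelled “WWOX” 1, 2, and 3. The library labelled “WWOX” 1 was above all “Vec” libraries, and the library labelled “WWOX” 2 was below all of them, which goes against its label. The methods of the study report that a Western blot of extracted protein established the efficiency of transduction. That blot is not analysed here. The log2FC was −0.01 (SE 0.222, adjusted p = 1 from limma), and a two-sided exact test by permutation of the labels gave p = 0.8, where 0.1 is the smallest p that 3 against 3 libraries can give. Without the library labelled “WWOX” 1 the log2FC was −0.30, and without “WWOX” 2 it was 0.23. A transcript of the vector starts in vector sequence, and how much of it these values hold was not tested. Every direction below is therefore a direction between libraries as labelled.

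Markers of glioblastoma cells were present. GFAP, the intermediate filament of astrocytes, measured 3115, 2815, and 2035 CPM in “Vec” and 114, 2506, and 3226 CPM in “WWOX”, so that 1 library labelled “WWOX” lay far below the other 5. S100B, a calcium-binding protein of glia, measured 343, 154, and 265 CPM in “Vec” and 31.8, 229, and 144 CPM in “WWOX”, again lowest in the library labelled “WWOX” 1. Of 28 glial and neural markers, 13 reached the minimum, and the library medians (the median over a list of the log2 difference from the mean of the 3 “Vec” libraries) were −0.97, −0.62, and 0.23 in “WWOX” 1, 2, and 3. All 24 markers of the mesenchymal glioblastoma state reached the minimum, and their library medians were −0.64, 0.73, and 0.13. Of the markers chosen for other cell types, those of leukocytes (PTPRC, CD14, LYZ) were at or under 0.206 CPM in every library. So were PECAM1 and VWF of endothelium and COL3A1 and DCN of fibroblasts, and the epithelial marker EPCAM did not exceed 0.335 CPM. The endothelial marker CDH5, by contrast, measured 2.01 to 13.2 CPM. COL1A1, KRT8, and KRT18 were also chosen and are not given here. These markers therefore do not show that other cell types were absent.

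The test compared the groups in 1 limma model over all 24 libraries, on scaled log2(CPM + 0.5) values, so that low genes have understated fold changes. It called 26 of the 10212 genes at an adjusted p under 0.05, 11 higher and 15 lower in the libraries labelled “WWOX”. Over all 12327 genes tested in the series, 0.114% were called higher and 0.203% lower. Before adjustment, a p under 0.05 was reached by 610 genes with a positive and 608 with a negative log2FC. Of the 26 called genes, 9 reached the minimum only in “Vec”, 8 only in “WWOX”, and 9 in both, so the direction of 17 was tied to how they entered. The 9 that reached it in both groups were ANXA6, XRCC5, ATP5F1A, PSMD1, SLC38A3, and CXCL14, all lower, and NT5E, MTHFS, and LUCAT1, all higher.

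The largest falls were in ITIH5, SOX11, RNASE1, and CXCL14. ITIH5, an inter-alpha-trypsin inhibitor heavy chain that binds hyaluronan in the matrix, measured 13.1, 14.2, and 18.4 CPM in “Vec” and 0, 0, and 0.0676 CPM in “WWOX”. With 1 tag in the library labelled “WWOX” 3 and none in the other two, it was at least 73.2-fold lower against a floor of 3 tags per library (adjusted p = 2.15e-12 from limma). SOX11, a transcription factor of neural progenitors, measured 8.11, 14.2, and 16.8 CPM in “Vec” and was at 0 in all 3 “WWOX” libraries, at least 62.8-fold lower (adjusted p = 6.37e-09 from limma). Both genes were silent or nearly so in every library labelled “WWOX”, including the 2 that disagreed elsewhere, and they were also the 2 genes called in a model of the 6 U251MG libraries alone (adjusted p = 0.00405 and 0.0149 from limma).

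RNASE1, a secreted ribonuclease, measured 17.5, 12, and 10.6 CPM in “Vec” and 0, 0.644, and 0.541 CPM in “WWOX” (log2FC −3.95, SE 0.475, adjusted p = 1.12e-04 from limma). CXCL14, a chemokine, measured 41.7, 28.4, and 22.6 CPM in “Vec” and 0.892, 2.5, and 6.29 CPM in “WWOX” (log2FC −3.31, SE 0.557, adjusted p = 0.00526 from limma). For both, every “WWOX” library lay under every “Vec” library, with the lowest value in the library labelled “WWOX” 1. BASP1, a membrane-bound protein of growing axons, measured 4.05, 6.84, and 3.75 CPM in “Vec” and 0.137, 0.572, and 0.473 CPM in “WWOX” (log2FC −2.53, SE 0.268, adjusted p = 1.64e-05 from limma). PDGFRL, a gene related in sequence to the platelet-derived growth factor receptors, measured 2.92, 9.79, and 8.17 CPM in “Vec” and 0.137, 0.644, and 1.56 CPM in “WWOX” (log2FC −2.53, SE 0.439, adjusted p = 0.00676 from limma). Both groups of PDGFRL were spread widely, but they did not overlap.

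Among the other falls, ANXA6, a calcium-dependent membrane-binding annexin, was the most abundant. It measured 262, 228, and 332 CPM in “Vec” and 111, 97.6, and 77.8 CPM in “WWOX” (log2FC −1.52, SE 0.263, adjusted p = 0.00639 from limma). The libraries labelled “WWOX” 1 and 2 were close in deposited CPM, and on the scaled values “WWOX” 2 was 1.30-fold higher. XRCC5, the larger Ku subunit of double-strand break repair, had a log2FC of −1.54. Subunits of the ATP synthase (ATP5F1A) and of the proteasome (PSMD1) are given with their lists below. The remaining falls were in VSTM4 (−2.30), CPE, a carboxypeptidase that processes neuropeptides (−2.09), EHF, an ETS transcription factor (−1.61), MSI1, an RNA-binding protein of neural stem cells (−1.56), and SLC38A3, a glutamine transporter (−1.25). MSI1 was the 1 called gene whose groups overlapped on the scaled values. In deposited CPM its groups did not overlap (lowest “Vec” 5.65, highest “WWOX” 4.22). Adjusted p-values from limma for these genes ran from 0.00201 for VSTM4 to 0.0459 for MSI1 and SLC38A3.

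The rises were smaller and mostly in genes of low level. NDNF, a secreted neurotrophic factor, measured 1.46, 0.318, and 0.201 CPM in “Vec” and 6.45, 3.65, and 4.26 CPM in “WWOX” (log2FC 2.27, SE 0.481, adjusted p = 0.0453 from limma). LHFPL4, which helps to place inhibitory receptors at synapses, measured 2.19, 1.35, and 0.536 CPM in “Vec” and 6.79, 4.51, and 5.07 CPM in “WWOX” (log2FC 1.74, adjusted p = 0.00238 from limma). MGMT, the DNA repair enzyme that removes alkyl groups from guanine and counters temozolomide, measured 1.70, 1.99, and 0.603 CPM in “Vec” and 4.05, 7.58, and 4.13 CPM in “WWOX” (log2FC 1.59, SE 0.340, adjusted p = 0.0459 from limma). These 3 genes did not overlap between the groups, although each stayed under 8 CPM in every library.

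LRAT, which esterifies retinol, measured 1.22, 0.875, and 0.737 CPM in “Vec” and 7.48, 2.15, and 3.25 CPM in “WWOX” (log2FC 1.55, adjusted p = 0.0136 from limma). NT5E (CD73), the cell-surface enzyme that makes adenosine from AMP, measured 26.3, 15.3, and 8.51 CPM in “Vec” and 36.8, 41.2, and 56.9 CPM in “WWOX” (log2FC 1.50, SE 0.327, adjusted p = 0.0459 from limma). PPIEL, a pseudogene related to the cyclophilin PPIE, measured 1.14, 0.557, and 0.804 CPM in “Vec” and 5.56, 1.79, and 3.04 CPM in “WWOX” (log2FC 1.44, adjusted p = 0.0302 from limma), and reads shared with a near-identical copy make it uncertain. NT5E was thus the most abundant of the genes called higher. The other rises were in TNFAIP8L3 (1.43), C14orf132 (1.40), CDH5, the cadherin of endothelial junctions (1.28), LUCAT1, a long noncoding RNA (1.25), and MTHFS, an enzyme of folate metabolism (0.96), with adjusted p-values from limma between 0.0133 and 0.0459. CDH5 rose from 2.01 to 3.81 CPM in “Vec” to 4.43 to 13.2 CPM in “WWOX”, while the endothelial markers PECAM1 and VWF stayed at or under 0.137 CPM.

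**Figure D1:**
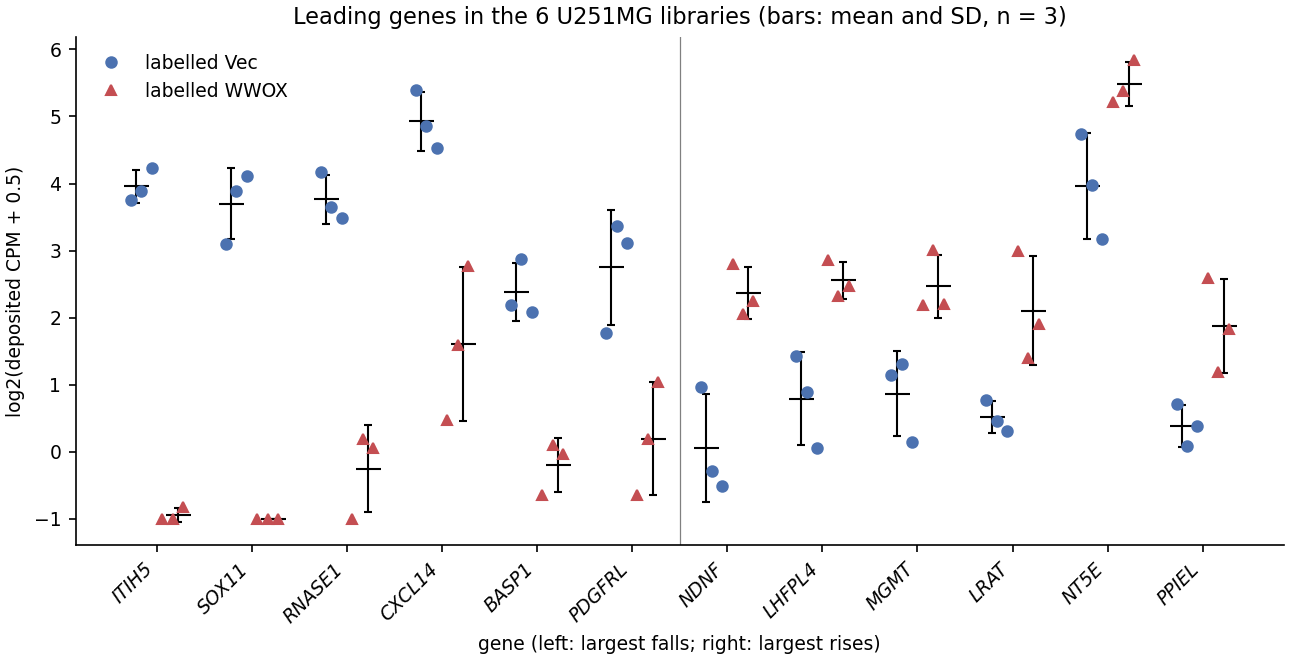
Each point is 1 U251MG library for the 6 genes called with the largest falls (left) and the 6 with the largest rises (right), as log2(deposited CPM + 0.5), where −1 stands for 0 CPM; black bars give the mean and SD over 3 libraries. All 3 libraries labelled “WWOX” lie near −1 for ITIH5 and SOX11, and for the genes on the right the “WWOX” points lie above the “Vec” points.

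How far these calls depend on single libraries was uneven. Of the 26 called genes, 13 were also called without the library labelled “WWOX” 1, and all 26 without “WWOX” 2, while the count itself was 24 and 517 in those fits, 47 without “WWOX” 3, and 52, 13, and 8 without “Vec” 1, 2, and 3. Of the 26, 10 overlap another annotated gene on the same strand, so tags could be split between them, and 4 more overlap a gene only on the opposite strand, where the strand setting of the counting is not given in the sources used here.

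A stricter rule asked that all 3 libraries labelled “WWOX” lie 2-fold or more beyond all 3 “Vec” libraries. It was met by 2 genes above “Vec” and 7 below, where over all genes tested 0.0406% were above and 0.0973% below. The 7 below were ITIH5, SOX11, RNASE1, CXCL14, BASP1, VSTM4, and CPE, all called by the test. The 2 above were NDNF and CA12, a cell-surface carbonic anhydrase, which measured 1.30, 1.75, and 0.469 CPM in “Vec” and 6.04, 3.86, and 8.18 CPM in “WWOX” and did not pass the test (log2FC 1.97, SE 0.621, adjusted p = 0.194 from limma). Without any minimum distance, the groups did not overlap for 525 genes above and 511 below, against 5.41% and 5.01% of all genes tested.

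The libraries labelled “WWOX” 1 and 2 were 2-fold or more apart at 4801 of the 10212 genes, or 47.0%. The 95% Wilson interval was 46.0 to 48.0. It covers the count of genes only, treats genes as independent, which they are not, and holds no spread between libraries. Of the 4801 genes, 2469 were higher in “WWOX” 1 and 2332 in “WWOX” 2, where 21.7% and 21.3% of all genes tested were so. At 173 genes the distance was 8-fold or more. The libraries labelled “WWOX” 1 and 3 were 2-fold apart at 17.7% of genes and “WWOX” 2 and 3 at 33.0%. In the 21 pairs of libraries outside this group, the same share ran from 1.11 to 25.7% with a median of 5.99%, and among the U251MG “Vec” libraries it was 13.1%, 2.65%, and 10.2%.

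Disagreement between “WWOX” 1 and 2 often meant opposite sides of the controls. At 2007 genes “WWOX” 1 was above all 3 “Vec” libraries and “WWOX” 2 below all 3, and at 1823 genes the reverse held, together 37.5% of the genes. Both lay above all “Vec” libraries at 911 genes and below all at 963, together 18.4%. Across genes, which are not independent replicates, Pearson's r of the differences from the “Vec” mean was −0.09 between “WWOX” 1 and 2, 0.34 between “WWOX” 1 and 3, and 0.03 between “WWOX” 2 and 3, and these differences share the same “Vec” libraries.

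**Figure D2:**
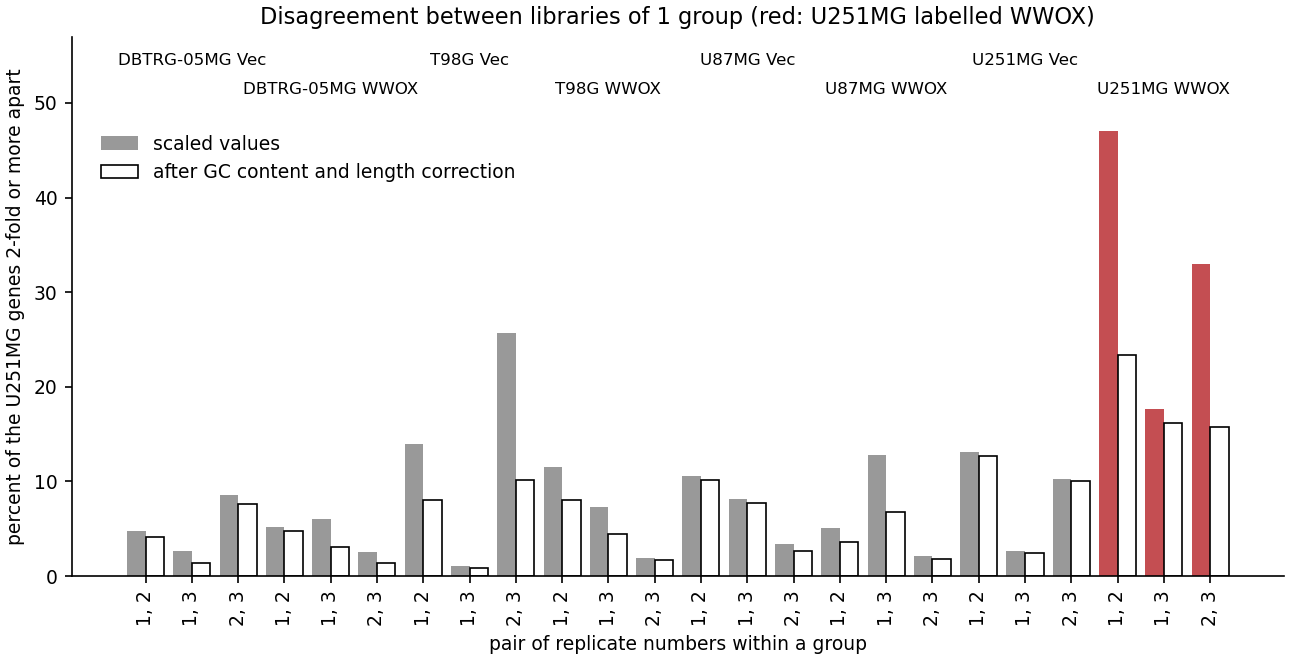
Bars give the percent of the 10212 genes that were 2-fold or more apart in each of the 24 pairs of libraries within a group, filled for the scaled values and open after a correction of each library for transcript GC content and length. The pair labelled U251MG “WWOX” 1 and 2 is the highest at 47.0%, and at 23.3% after the correction.

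The sign of this disagreement followed the base composition of the transcripts. The genes were split into 4 bins of 2553 by the GC content of the canonical GENCODE transcript. In the bin with the lowest GC content (30.7 to 41.9%), 55.2% of genes were 2-fold or more higher in “WWOX” 1 and 2.98% in “WWOX” 2. In the bin with the highest GC content (56.6 to 83.3%), 1.29% were higher in “WWOX” 1 and 57.6% in “WWOX” 2. Across genes, Spearman's rho between GC content and the difference from the “Vec” mean was −0.43 in “WWOX” 1, 0.64 in “WWOX” 2, and −0.25 in “WWOX” 3, and between −0.16 and 0.24 in the “Vec” libraries. Transcript length gave 0.31, −0.33, and 0.19 in “WWOX” 1, 2, and 3, so that long, GC-poor transcripts had more tags in “WWOX” 1 and short, GC-rich transcripts in “WWOX” 2. After each library was corrected for GC content and length, a step chosen after seeing the data, “WWOX” 1 and 2 were 2-fold apart at 23.3% of genes, and 172 genes passed the test, 67 higher and 105 lower, including all 26 named above.

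**Figure D3:**
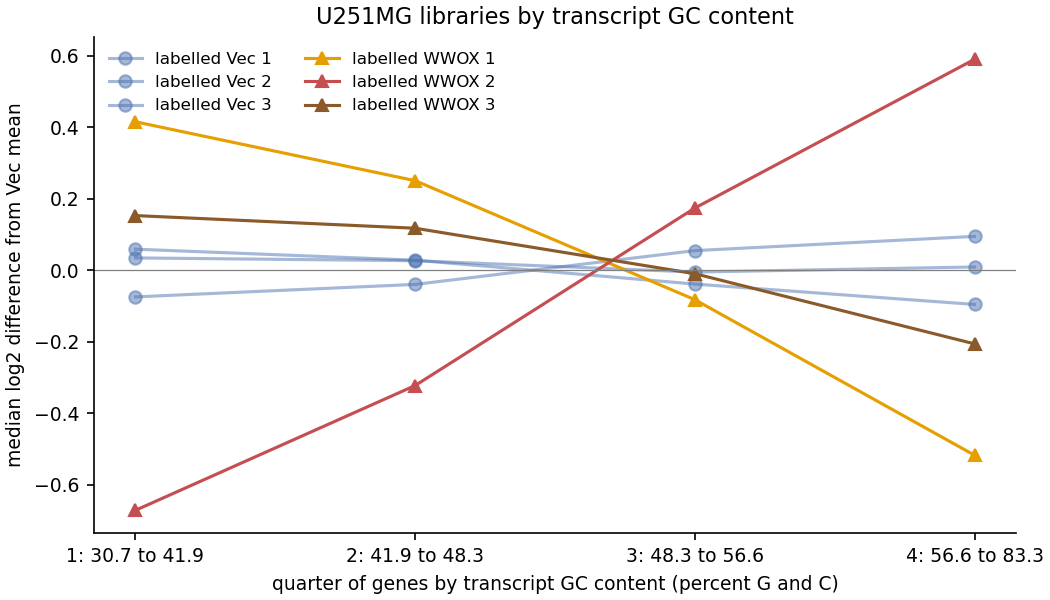
Median log2 difference from the mean of the “Vec” libraries (vertical axis) in 4 bins of 2553 genes each by transcript GC content (horizontal axis), with 1 line for each of the 6 U251MG libraries. The line of “WWOX” 1 runs from 0.42 to −0.52 and that of “WWOX” 2 from −0.67 to 0.59, while the “Vec” lines stay between −0.10 and 0.09.

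Gene lists of pathways and families, 45 in all, held 1280 of the 10212 genes, and 4 of these passed the test in limma: SOX11, ATP5F1A, and PSMD1 were lower and NT5E was higher. These are 0.312% of the listed genes, against 0.255% of all 10212. Before adjustment, 77 listed genes (6.02%) with a p under 0.05 were higher and 119 (9.3%) were lower, against 5.97% and 5.95% of all 10212. On the recovered tags edgeR called 0 listed genes higher and 1 lower, limma-voom 1 and 2, and DESeq2 12 and 12, and after the GC content and length correction limma called 8 higher and 19 lower. Over all 10212 genes, edgeR called 0 higher and 7 lower, limma-voom 1 and 12, and DESeq2 77 and 58. After the correction limma called 67 of the 10212 higher and 105 lower. In the lists described below, no gene passed the test in limma except these 4, and counts in parentheses are the genes of a list that reached the minimum. The median log2FC of 16 lists had the other sign without “WWOX” 2, and that of 10 lists without “WWOX” 1. Without “WWOX” 2 the test called 212 of all 10212 genes higher and 305 lower, and without “WWOX” 1 it called 12 and 12.

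Among genes with a mean of at least 20 CPM, 9 of the 10 most in excess in “WWOX” 1 over 2 were nuclear pseudogene copies of mitochondrial genes. MTND5P11 on chromosome 5, a copy of a subunit of respiratory complex I, measured 192, 507, and 250 CPM in “Vec” and 1955, 29.3, and 291 CPM in “WWOX”. All 20 such copies that reached the minimum were 2-fold or more higher in “WWOX” 1 than in “WWOX” 2, by 2.47 to 5.47 on the log2 scale. They are near-identical to genes of the mitochondrial chromosome, whose 37 genes are listed at 0 in every library, so these values are uncertain. The other gene of the 10 was MALAT1, an abundant nuclear long noncoding RNA, with 4070, 2954, and 2907 CPM in “Vec” and 15285, 412, and 2669 CPM in “WWOX”. It alone took 1.53% of all tags in “WWOX” 1 and 0.0412% in “WWOX” 2.

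The 10 genes most in excess in “WWOX” 2 over 1 were ISG15, IFITM1, IFI27, BST2, H3C8, IFI6, IFIT1, CCL2, GFAP, and CXCL8, of which 6 are interferon-stimulated genes and CCL2 and CXCL8 are chemokines. Type I interferons act through a receptor and STAT factors on a shared promoter element, the interferon-stimulated response element (ISRE). Genes under it are antiviral effectors, and they often move together.

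ISG15, a ubiquitin-like modifier, measured 1268, 236, and 205 CPM in “Vec” and 50.1, 5408, and 568 CPM in “WWOX”. IFI6, a mitochondrial antiviral protein, measured 1103, 111, and 151 CPM in “Vec” and 178, 6956, and 988 CPM in “WWOX”. BST2 (tetherin), which holds budding viruses at the cell surface, measured 108, 7.24, and 7.30 CPM in “Vec” and 5.56, 435, and 65.4 CPM in “WWOX”. The order was the same for these 3 genes at the top, with “WWOX” 2 highest and “Vec” 1 next, and both “Vec” 2 and 3 lower than “WWOX” 3. IFIT1, which binds viral RNA caps, measured 70.2, 27.1, and 13.1 CPM in “Vec” and 3.84, 138, and 94.1 CPM in “WWOX”, with “WWOX” 3 above “Vec” 1 here.

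The 150 bases before the RefSeq starts of these 4 genes (GRCh38.p14, 5′ to 3′ on the strand of the gene) are shown because they hold the shared element. Capitals mark GAAANNGAA, the core of the ISRE, found on either strand, and neighbouring copies may overlap. ISG15 lies at chr1:1013347-1013496 (plus strand), IFI6 at chr1:27672193-27672342 (minus), IFIT1 at chr10:89392473-89392622 (plus), and BST2 at chr19:17405631-17405780 (minus).
ISG15: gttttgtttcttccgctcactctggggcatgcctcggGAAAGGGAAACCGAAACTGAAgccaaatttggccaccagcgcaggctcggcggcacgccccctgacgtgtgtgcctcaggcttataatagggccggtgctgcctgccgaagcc
IFI6: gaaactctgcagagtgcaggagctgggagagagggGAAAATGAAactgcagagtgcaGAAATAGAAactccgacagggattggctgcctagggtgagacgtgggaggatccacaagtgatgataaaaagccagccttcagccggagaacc
IFIT1: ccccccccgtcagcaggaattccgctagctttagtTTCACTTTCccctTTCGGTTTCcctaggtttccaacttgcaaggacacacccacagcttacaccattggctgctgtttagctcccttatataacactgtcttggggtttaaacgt
BST2: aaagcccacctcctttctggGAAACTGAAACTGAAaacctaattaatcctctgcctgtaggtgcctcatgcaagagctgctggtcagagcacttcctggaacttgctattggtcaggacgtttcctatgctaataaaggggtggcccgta
In the 250 bases before the start, GAAANNGAA was present in 18 of 26 RefSeq windows of the 21 listed interferon genes that matched (69.2%), against 6.88% of all 35116 windows. GAAANNGAA was also present in 37.5% of 48 windows of replication-dependent histone genes. A match is a description of these letters.

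Of 31 listed interferon-stimulated genes, 28 reached the minimum. Their library medians were 1.04, −0.54, and −0.69 in “Vec” 1, 2, and 3, and −1.26, 2.13, and 1.15 in “WWOX” 1, 2, and 3, so the “Vec” libraries were themselves apart. In 23 of the 28 genes “WWOX” 1 was 2-fold or more under “WWOX” 2, and in 0 was it above. The median log2FC of the list was 0.53, against −0.01 over the 10212 genes, and it was 1.57 without “WWOX” 1 and −0.12 without “WWOX” 2. After the GC content and length correction the library medians of “WWOX” 1, 2, and 3 were −1.26, 1.95, and 1.10, close to the values before it. The list took 1.55% of all tags in “WWOX” 2, 0.288% in “WWOX” 3, and 0.0681% in “WWOX” 1, and 0.396%, 0.0956%, and 0.106% in “Vec”.

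**Figure D4:**
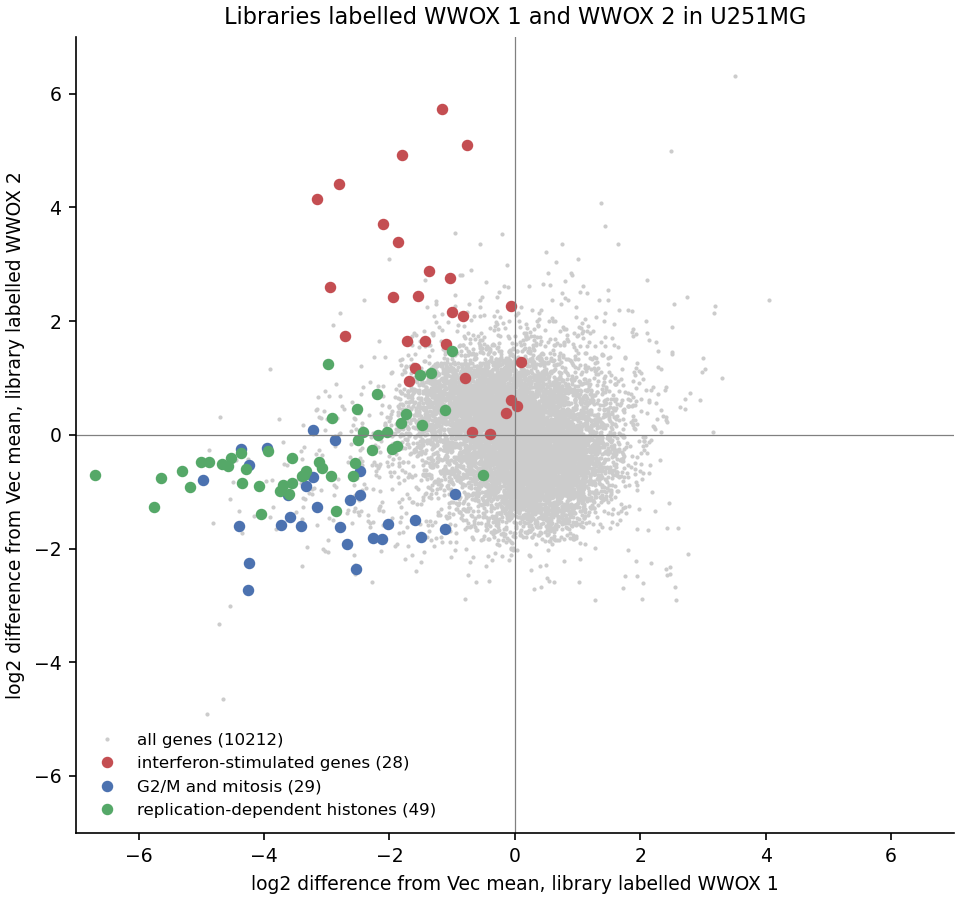
Each point is 1 of the 10212 genes by its log2 difference from the mean of the 3 “Vec” libraries in the library labelled “WWOX” 1 (horizontal axis) and “WWOX” 2 (vertical axis), with 3 gene lists in color. Interferon-stimulated genes lie up and to the left (library medians −1.26 and 2.13), and mitotic and histone genes lie to the left (−3.15 and −1.44, and −3.12 and −0.48).

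Genes of cell division were low in the library labelled “WWOX” 1. Mitotic genes are transcribed late in the cell cycle, through promoters with CCAAT boxes and a cell cycle homology region (TTTGAA), and replication-dependent histone genes are active in S phase, so that both track the share of dividing cells. In bulk samples fewer cycling cells and less RNA per cell cannot be told apart. Of 30 listed genes of G2/M and mitosis, 29 reached the minimum, and 9 were lower at an unadjusted p under 0.05. Their library medians were −0.84, 0.89, and −0.00 in “Vec”, and −3.15, −1.44, and 0.22 in “WWOX”, and the log2FC was above 0 in 0 of the 29.

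MKI67, the proliferation antigen Ki-67, measured 21.4, 143, and 50.4 CPM in “Vec” and 2.68, 8.30, and 48.1 CPM in “WWOX” (log2FC −2.30, SE 0.912, adjusted p = 0.321 from limma). TOP2A, the topoisomerase that untangles chromosomes before division, measured 36.8, 172, and 85.7 CPM in “Vec” and 4.32, 9.15, and 109 CPM in “WWOX” (log2FC −2.26, SE 0.839, adjusted p = 0.276 from limma). For both genes “WWOX” 1 and 2 were the lowest libraries, while “WWOX” 3 was within the range of “Vec”. H3C8, a histone H3 gene, measured 1084, 2936, and 2232 CPM in “Vec” and 20.6, 903, and 1387 CPM in “WWOX” (log2FC −2.70, SE 1.03, adjusted p = 0.292 from limma). H1-5, a linker histone gene, measured 672, 2894, and 1609 CPM in “Vec” and 30.2, 464, and 1038 CPM in “WWOX” (log2FC −2.59, SE 0.916, adjusted p = 0.252 from limma).

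The 120 bases before the starts of these 4 genes (GRCh38.p14, strand of the gene) are shown for the elements named above. Capitals mark CCAAT and TTTGAA on either strand in MKI67, where one of each overlap by 1 base, and CCAAT on either strand in TOP2A, H3C8, and H1-5. The stretch of TOP2A was also searched for TTTGAA and holds 0 copies. In H3C8 and H1-5 TTTGAA was not marked. MKI67 lies at chr10:128126424-128126543, TOP2A at chr17:40417897-40418016, H3C8 at chr6:26271414-26271533, and H1-5 at chr6:27867589-27867708, all on the minus strand.
MKI67: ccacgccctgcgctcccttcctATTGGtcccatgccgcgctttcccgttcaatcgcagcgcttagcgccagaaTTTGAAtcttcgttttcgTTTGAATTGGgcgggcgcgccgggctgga
TOP2A: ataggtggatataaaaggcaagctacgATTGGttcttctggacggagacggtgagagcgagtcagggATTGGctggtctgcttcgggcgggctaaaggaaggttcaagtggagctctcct
H3C8: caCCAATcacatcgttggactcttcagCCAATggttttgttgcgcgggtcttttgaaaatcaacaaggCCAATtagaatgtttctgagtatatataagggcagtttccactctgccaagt
H1-5: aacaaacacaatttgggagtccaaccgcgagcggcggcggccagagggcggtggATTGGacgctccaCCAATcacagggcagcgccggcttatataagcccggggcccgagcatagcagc
In the 250 bases before the start, CCAAT was present in 82.1% of 28 windows of 24 mitotic genes, in 89.6% of 48 windows of 45 histone genes, and in 32.0% of all windows. TTTGAA was present in 53.6% of the mitotic windows, in 37.5% of the histone windows, and in 13.3% of all windows.

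Of 67 replication-dependent histone genes, 49 reached the minimum, and 29 were lower at an unadjusted p under 0.05. Their library medians were −3.12, −0.48, and −0.49 in “WWOX”, and in “Vec” −0.48, 0.37, and 0.13. In 48 of the 49, “WWOX” 1 was 2-fold or more under “WWOX” 2. Histone genes are near-identical copies, and tags may be split between them. After the GC content and length correction the library medians were −2.48, −0.93, and −0.45 for histones and −3.03, −1.03, and 0.16 for mitosis. The test called 5 histone genes lower without “WWOX” 2, against 305 of all 10212 genes. Of 36 genes of DNA replication, 32 reached the minimum, and the library medians were −1.44, −0.54, and 0.34, with RRM2, a subunit of the enzyme that makes deoxyribonucleotides, at 51.4, 151, and 79.8 CPM in “Vec” and 4.18, 19.6, and 183 CPM in “WWOX”. Of 26 p53 targets, 24 reached the minimum, with a median log2FC of 0.17, and of −0.10 without “WWOX” 2.

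Inflammatory and growth-signal genes showed the order of the interferon genes in part. Of the NF-kB response and chemokine genes, 16 reached the minimum, and the library medians were −1.20, 1.10, and 0.63 in “WWOX” 1, 2, and 3. CXCL8, a chemokine that draws neutrophils, measured 105, 26.8, and 67.7 CPM in “Vec” and 8.99, 197, and 411 CPM in “WWOX”. CCL2, which draws monocytes, measured 54.1, 41.5, and 59.9 CPM in “Vec” and 3.36, 87.9, and 266 CPM in “WWOX”. In both, “WWOX” 2 and 3 were above all “Vec” libraries and “WWOX” 1 below all. Genes of MHC class I presentation (14) had library medians of −0.05, 1.65, and 0.21 in “WWOX”, against 0.34, −0.18, and −0.12 in “Vec”. B2M, the light chain of class I molecules, measured 4440, 2849, and 2536 CPM in “Vec” and 8375, 4169, and 8371 CPM in “WWOX” (log2FC 1.05, SE 0.329, adjusted p = 0.19 from limma). AP-1 and immediate early genes (16) had library medians of −0.06, 1.71, and 0.43 in “WWOX”, against 0.46, −0.40, and −0.13 in “Vec”.

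Genes of MAPK feedback and output, which the RAS pathway turns on to limit itself, were above 0 in all 3 libraries labelled “WWOX”, with library medians of 0.43, 1.03, and 0.96, although “Vec” 1 reached 0.54. Of their 14 genes 7 were higher at an unadjusted p under 0.05. Without “WWOX” 2, 4 passed as higher, against 212 of all 10212 genes. SPRY4, an inhibitor of receptor tyrosine kinase signalling, measured 41.8, 7.96, and 12.1 CPM in “Vec” and 38.8, 46.6, and 38.3 CPM in “WWOX” (log2FC 1.32, SE 0.419, adjusted p = 0.195 from limma). ETV1, an ETS factor, measured 11.4, 3.42, and 4.42 CPM in “Vec” and 48.3, 7.44, and 17.2 CPM in “WWOX” (log2FC 1.61, adjusted p = 0.119 from limma). For both genes “Vec” 1 lay within the range of the “WWOX” libraries.

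The ATF4 and endoplasmic reticulum stress lists differed widely within both groups. Genes of the ATF4 and integrated stress response (24) had library medians of 0.91, −1.54, and 0.58 in “Vec” and 0.65, 1.38, and −0.68 in “WWOX”. Chaperones of the endoplasmic reticulum (23) had 0.43, −1.18, and 0.81 in “Vec” and 0.88, 0.37, and −1.34 in “WWOX”, so that “Vec” 2 and “WWOX” 3 were the low libraries of both lists. HSPA1B, an inducible HSP70 chaperone with a near-identical copy, measured 395, 24.9, and 33.5 CPM in “Vec” and 446, 1717, and 128 CPM in “WWOX” (log2FC 2.71, SE 1.05, adjusted p = 0.302 from limma). Cytosolic heat shock genes (18) had library medians of 0.35, 0.92, and 0.14 in “WWOX”, against 0.40, −0.13, and −0.35 in “Vec”. NRF2 targets, which handle oxidants (20), had 1.00, 0.64, and −0.14 in “WWOX”, against 0.31, −0.14, and −0.07 in “Vec”. Here “WWOX” 1 and 2 were on the same side, with a median difference of 0.05 between them. Metallothioneins (4) had −0.54, 0.12, and −0.05 in “WWOX”.

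For 2 of the 45 lists, both of housekeeping machines, all library medians of “WWOX” lay under all of “Vec”, and for 0 lists did they lie above. After the GC content and length correction this held for 5 lists below (cholesterol synthesis, mitochondrial ribosomal proteins, proteasome, actin and contractile genes, and splicing factors) and for 1 above (ZNF genes). Of all genes tested, before that correction, 5.01% had every “WWOX” library below every “Vec” library and 5.41% had every one above. Proteasome subunits had −0.16, 0.13, and 0.00 in “Vec” and −1.10, −0.23, and −0.26 in “WWOX”, and of 35 genes 1 passed the test, PSMD1, with 12 lower at an unadjusted p under 0.05. PSMD1 measured 146, 188, and 156 CPM in “Vec” and 72.6, 73.3, and 115 CPM in “WWOX” (log2FC −0.95, SE 0.202, adjusted p = 0.0459 from limma). In deposited CPM “WWOX” 1 and 2 were nearly equal, while on the scaled values “WWOX” 2 was 1.49-fold higher. Splicing factors of the SR and hnRNP families had −0.08, 0.05, and 0.06 in “Vec” and −0.46, −0.22, and −0.31 in “WWOX”, and of 28 genes 6 were lower at an unadjusted p under 0.05. Without “WWOX” 2, 9 proteasome genes and 3 splicing factors passed as lower, against 305 of all 10212 genes. Without “WWOX” 1, 0 did in either list, against 12 of all 10212.

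Respiratory chain subunits had library medians of −0.69, 0.19, and −0.08 in “WWOX”, and 1 of 57 passed the test, ATP5F1A, at 150, 213, and 184 CPM in “Vec” and 81.8, 70.8, and 120 CPM in “WWOX” (log2FC −1.04, SE 0.204, adjusted p = 0.0227 from limma). All 3 “WWOX” values lay under all 3 “Vec” values. Mitochondrial ribosomal proteins (71) had −0.41, 0.09, and −0.32, and cytosolic ribosomal proteins (78) had −0.26, 0.58, and −0.25. Lysosomal genes (30, with 6 higher at an unadjusted p under 0.05) had 0.30, 0.88, and 0.17, against 0.41, −0.32, and −0.08 in “Vec”. Host genes of small nucleolar RNAs (23) had −0.25, 0.55, and −0.03.

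In metabolism, cholesterol synthesis genes (19) had library medians of −1.08, −0.15, and −0.21 in “WWOX”, against −0.17, −0.01, and 0.18 in “Vec”. The list of sterol efflux genes and LXR targets (11) had 0.08, 0.05, and 0.10, and its 2 largest differences were of opposite sign. FASN, the fatty acid synthase, measured 186, 148, and 176 CPM in “Vec” and 49.9, 97.3, and 107 CPM in “WWOX” (log2FC −1.08, SE 0.377, adjusted p = 0.243 from limma). ABCA1, the cholesterol exporter, measured 42.5, 37.2, and 45.9 CPM in “Vec” and 242, 33.2, and 81.0 CPM in “WWOX” (log2FC 1.03, SE 0.417, adjusted p = 0.334 from limma). Genes of hypoxia and glycolysis (29, with 8 higher at an unadjusted p under 0.05) had 0.53, 0.69, and 0.12, against 0.13, 0.11, and −0.31 in “Vec”. ADM, the hypoxia-induced peptide adrenomedullin, measured 129, 77.9, and 56.2 CPM in “Vec” and 416, 204, and 235 CPM in “WWOX” (log2FC 1.69, SE 0.398, adjusted p = 0.0724 from limma), with no overlap between the groups.

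Among structural genes, the actin and contractile list had library medians of −1.03, −0.00, and −0.45 in “WWOX”. Of its 25 genes 10 were lower at an unadjusted p under 0.05. Without “WWOX” 2, 6 passed as lower, against 305 of all 10212 genes. MYL12A, a myosin light chain, measured 610, 530, and 677 CPM in “Vec” and 276, 313, and 317 CPM in “WWOX” (log2FC −1.01, SE 0.245, adjusted p = 0.0822 from limma). All 3 “WWOX” libraries were close together in deposited CPM. On the scaled values their differences from the “Vec” mean were −1.31, −0.57, and −1.16. Microtubule genes (22) had −0.78, −0.21, and −0.05, and MAPRE1, which binds growing microtubule ends, had a log2FC of −0.90 (SE 0.216, adjusted p = 0.0772 from limma). S100A genes (8) had −1.67, 0.72, and −0.25.

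Among the matrix and adhesion lists, library medians in “WWOX” 1, 2, and 3 were −0.04, 0.45, and 0.12 for collagens (18), 0.28, −0.26, and 0.21 for integrins and laminins (23), −0.11, 0.04, and 0.22 for secreted matrix proteins (16), and 0.18, 0.14, and 0.41 for matrix proteases (15). In “Vec” 1, 2, and 3 they were 0.30, 0.16, and −0.29 for collagens and 0.03, −0.01, and −0.08 for integrins and laminins. Secreted matrix proteins had 0.26, −0.01, and −0.32 in “Vec”, and matrix proteases 0.29, −0.02, and −0.18. FN1, fibronectin, measured 34.9, 17.3, and 12.5 CPM in “Vec” and 141, 21.4, and 51.7 CPM in “WWOX” (log2FC 1.42, SE 0.489, adjusted p = 0.235 from limma), and ITGA11, a collagen receptor subunit, had a log2FC of 1.94 (SE 0.593, adjusted p = 0.178 from limma). In “WWOX”, cadherins, catenins, and junction genes (21) had 0.13, −0.17, and 0.31, polarity genes (16) had 0.19, −0.21, and 0.06, and clustered protocadherins (5) had −0.28, −0.39, and 0.20.

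Among transcription factors and signalling lists, SOX11 and NT5E passed the test. The 8 SOX factors had library medians of 0.28, −0.77, and 0.97 in “WWOX”. SOX2, which maintains neural stem cells, measured 71.3, 172, and 50.8 CPM in “Vec” and 268, 31.0, and 266 CPM in “WWOX”, and SOX9, a glial factor, 65.7, 297, and 65.2 CPM in “Vec” and 222, 44.9, and 430 CPM in “WWOX”. In both, “WWOX” 2 was the lowest library, whereas SOX11 was at 0 in all 3. HOX factors (13) had 0.04, −0.27, and 0.23, and the 296 ZNF genes had 0.25, −0.09, and 0.07. YAP and TAZ targets (20) had −0.48, 0.20, and 0.10, with NT5E as the 1 gene called.

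Genes of Wnt signalling (23) had 0.01, 0.16, and 0.33, genes of the TGF-beta and BMP response (18) had −0.30, 0.32, and 0.65, and receptor tyrosine kinases (18) had −0.16, 0.25, and 0.19. Insulin-like growth factor binding proteins (6) had 0.14, 1.95, and −0.05 in “WWOX”, against 0.45, −0.18, and −0.26 in “Vec”. IGFBP5 measured 2087, 1018, and 859 CPM in “Vec” and 3159, 2901, and 4858 CPM in “WWOX” (log2FC 1.52, SE 0.996, adjusted p = 0.61 from limma). The groups of IGFBP5 did not overlap in CPM. Known WWOX binding partners (17) had library medians of −0.25, −0.24, and −0.04 in “WWOX”, with a median log2FC of −0.05.

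**Figure D5:**
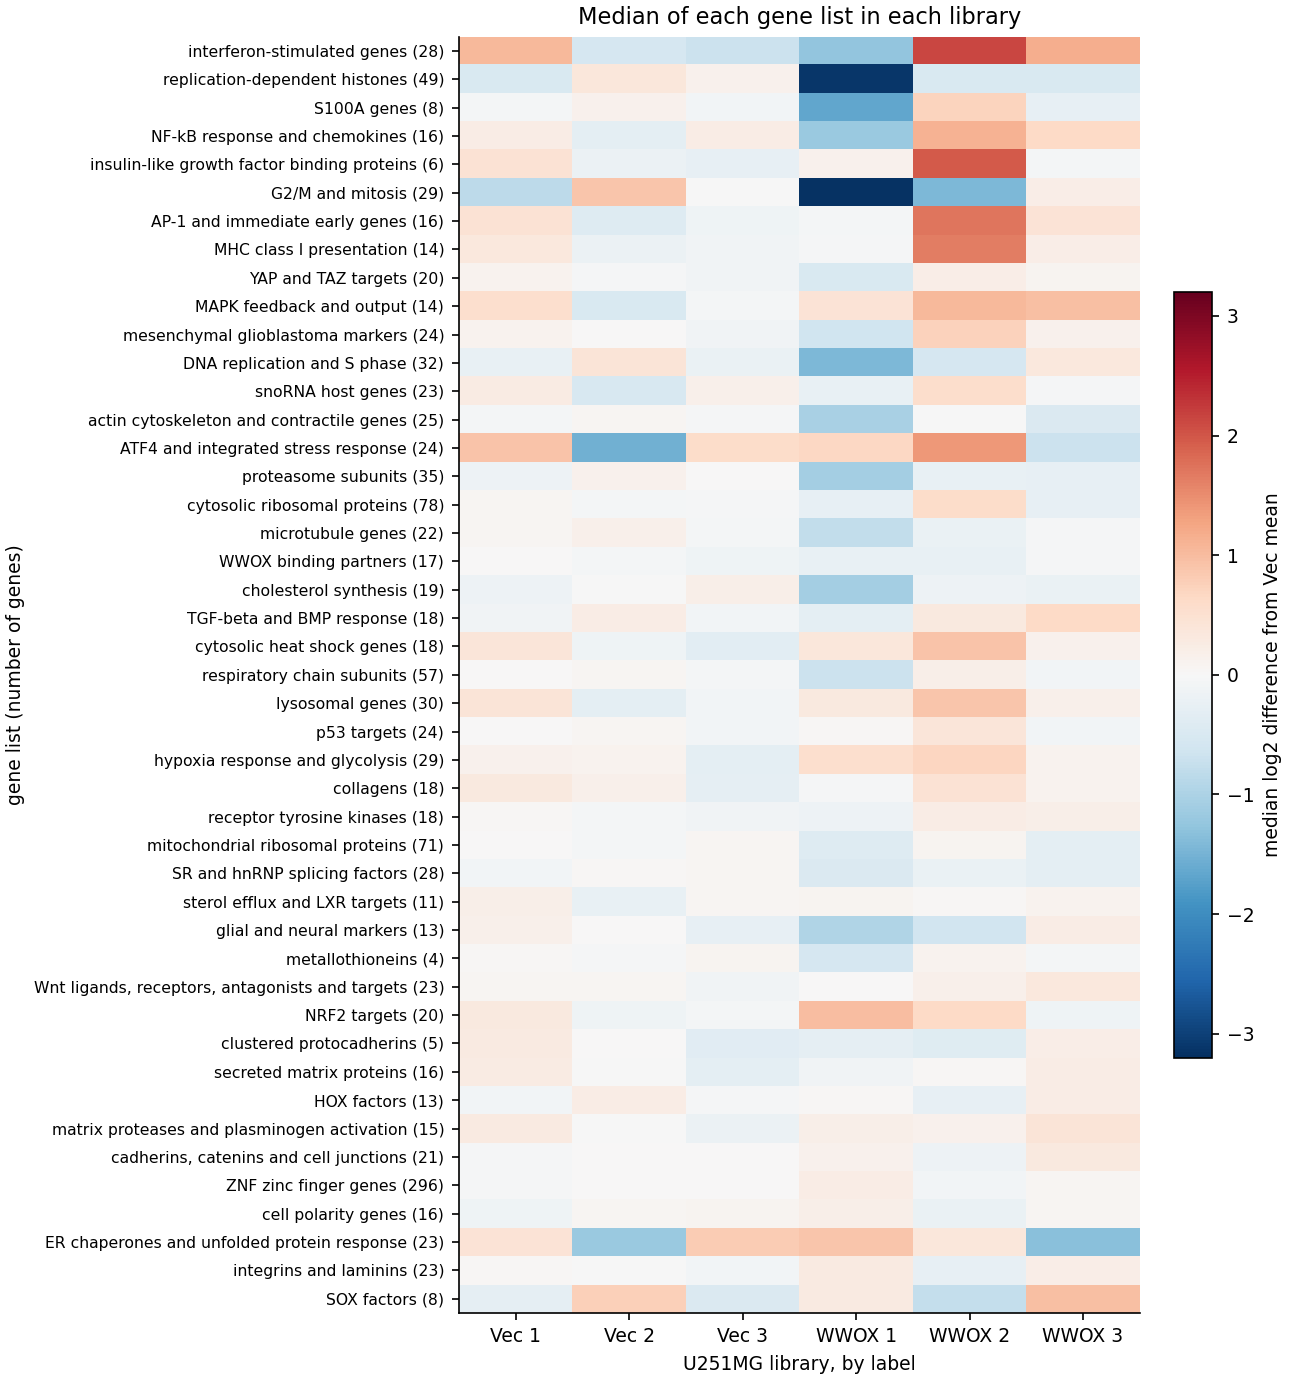
Color gives the median log2 difference from the mean of the 3 “Vec” libraries for each of 45 gene lists (rows, with the number of genes) in each U251MG library (columns). Rows are ordered by the signed median of “WWOX” 1 minus “WWOX” 2, the most negative at the top. Interferon-stimulated genes and histones stand at the top, with a median of “WWOX” 1 minus “WWOX” 2 of −3.26 and −2.66, and the stress lists differ among the “Vec” libraries as well.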

How the data were processed

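CAGE-Seq libraries of 4 glioblastoma lines, 3 “Vec” and 3 “WWOX” each, were deposited as CPM per gene. Per the paper's methods the authors aligned reads to hg38 with STAR, and counted tags with SAMtools in R. The deposited values are CPM, each library summing to the same total; the submitters' processing notes also name limma 3.42. The annotation version and the strand setting of the counting are not given in the sources used here. Whole tags were recovered from the deposited CPM (100% of values whole within 0.01), giving 12333788 to 14931546 tags in the U251MG libraries.

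CPM were divided by an unweighted trimmed mean factor, a pseudocount of 0.5 was added, and log2 values were fitted with limma 3.58.1 (R 4.3.3) with 1 mean for each of 8 groups in 24 libraries and a trend in the variance. The test covered the 12327 genes that reached 5 CPM in any of the 24 libraries, with Benjamini-Hochberg adjustment over all of them and a threshold of 0.05. On the recovered tags, edgeR 4.0.16, limma-voom, and DESeq2 1.42.0 were alternatives. The Wilson interval covers the count of genes only, and the floor of 3 tags covers counting error only.

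The genes and lists were chosen with earlier results of these data known. Named genes were WWOX, all called genes (each library's value for the 6 largest rises and falls), genes whose groups lay 2-fold or more apart, the called genes and the 2 largest log2FC of each list among genes with a mean of at least 10 CPM, and the 10 largest differences between “WWOX” 1 and 2 in each direction among genes with a mean of at least 20 CPM. Promoter sequences were from RefSeq (GRCh38.p14) and matched by symbol for 8239 genes. Transcript GC content and length were those of the canonical GENCODE transcript, fitted as splines with 5 degrees of freedom each. Library quality weights used the gene-by-gene method, since the restricted maximum likelihood fit did not converge. The scripts were tested on simulated data.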

Additional observations from a re-analysis of the deposited data

Results flagged for a closer look

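For 10 of the 26 called genes the log2FC in U251MG differed from the mean log2FC of DBTRG-05MG, T98G, and U87MG. This was a limma contrast of the difference itself, adjusted over all 12327 genes tested, of which 52 passed. The 26 were chosen by the same U251MG values that enter the contrast. Of them, 9 reached the minimum only in “Vec” and 8 only in “WWOX”. The p-values of the contrast are therefore no separate support for the calls. The difference was −5.67 for SOX11 (SE 0.366, adjusted p = 2.2e-09) and −4.48 for ITIH5 (SE 0.249, adjusted p = 2.16e-10). It was −2.77 for BASP1, −2.37 for PDGFRL, −1.40 for ANXA6, and −1.29 for ATP5F1A. Among the genes called higher it was 2.09 for NT5E, 1.75 for LHFPL4, 1.62 for C14orf132, and 1.25 for CDH5. The adjusted p-values of these last 8 genes from limma ran from 3.03e-05 for BASP1 to 0.0399 for ANXA6. The other 16 called genes did not pass this contrast, which does not show that the lines responded alike.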

How the results depend on the processing

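The 26 genes became 11 with a pseudocount of 0.1, 9 with a mean of at least 5 CPM, 2 with U251MG alone, 1365 with library quality weights, 7 with edgeR, 13 with limma-voom, 135 with DESeq2, and 172 after the GC content and length correction, which was added after seeing the data. With a replicate block there were 15, of which 12 were among the 26. The correlations of same-numbered libraries' deviations were 0.08, −0.32, and −0.40. Between unlike numbers they ran from −0.58 for “Vec” 1 with “WWOX” 3 to 0.70 for “Vec” 2 with “WWOX” 3. Whether the numbers pair the libraries is not settled by these correlations. Leaving out 1 library gave 8 to 517 genes, with 42 without T98G “Vec” 2, 16 or 17 without T98G “Vec” 1, T98G “WWOX” 2 or 3, or any U87MG “WWOX” library. The causes were not tested. The WWOX log2FC turned positive on CPM as deposited (0.0066), with quality weights (0.020), edgeR (0.087), limma-voom (0.018), and DESeq2 (0.077), and ran from −0.30 to 0.23 over libraries left out. The 47.0% of genes 2-fold apart between “WWOX” 1 and 2 became 48.7% and 45% with pseudocounts of 0.1 and 1, 50.7% on CPM as deposited, and 23.3% after the correction. The 9 genes 2-fold beyond “Vec” became 5 with a mean of at least 5 CPM, and 10 to 53 with 1 library left out (47 and 18 without “Vec” 1 and 2, and 41, 52, and 53 without “WWOX” 1, 2, and 3). Leaving out a U251MG library loosens this rule, so apart from rescaling the count could not fall. None of the 26 called genes changed direction under the alternatives run, but other named genes did: ISG15 had a log2FC of 0.43, and −1.46 without “WWOX” 2. With 3 libraries a group and these disagreements, genes short of the threshold cannot be called equal.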

Other observations

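By chromosome, the 350 genes of chromosome 15 had library medians of 0.41, 0.09, and 0.32 in the libraries labelled “WWOX”. All were above “Vec” (0.04, 0.03, and −0.05), with a median log2FC of 0.24. Chromosome 7 also lay above “Vec” (0.12, 0.07, and 0.08), and chromosome 9 lay below it (−0.0719, −0.0161, and −0.0365). For chromosome 9 the nearest “Vec” value was −0.0159. Among all genes tested, the groups were likewise apart at 5.41% with “WWOX” above and at 5.01% with “WWOX” below. Chromosome 19, with 731 genes, had −0.36, 0.44, and −0.16, and a median of “WWOX” 1 minus “WWOX” 2 of −0.93, the widest of the 22 autosomes. HSPA6, an inducible HSP70 gene named after its values were seen, measured 471, 5.09, and 22.6 CPM in “Vec” and 513, 2405, and 183 CPM in “WWOX” (log2FC 3.94, SE 1.50, adjusted p = 0.292 from limma).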
